A study of Mus musculus with 12 samples.

Results

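YY1 peaks were examined at 10 mouse genes of growth control: Myc, the p53 gene Trp53 with its antagonists Mdm2 and Mdm4, the CIP/KIP inhibitors Cdkn1a (p21), Cdkn1b (p27) and Cdkn1c (p57), and the D-type cyclins Ccnd1, Ccnd2 and Ccnd3. They were taken by name from the 21755 protein-coding genes on chromosomes 1 to 19 and X in GENCODE M21 (mm10, GRCm38). The choice was made with earlier results of these data known. The data are 4 chromatin immunoprecipitation (ChIP-seq) libraries made with an antibody to YY1, 2 from wild-type (WT) and 2 from XistΔ/Δ mice, all female, 3 months old and of 129Sv4/Jae x B6 background. The cells were lineage-negative (Lin−) bone marrow cells, a mixture of stem and progenitor cells left after cells labelled for mature lineages were depleted. Xist had been deleted with a Vav-iCre transgene, which is active in blood cells, and whether the transgene was present in WT mice is not given in the labels. Of the 12 samples of the series, the 8 libraries of histone marks were not analysed here.

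YY1 is a zinc-finger factor that binds promoters and enhancers and can bring them together. Myc drives growth and entry into the cell cycle, and D-type cyclins with CDK4 or CDK6 start the phosphorylation of the retinoblastoma protein that releases E2F factors. Against this, p53 answers DNA damage and other stress by inducing p21, while Mdm2 (a ubiquitin ligase) and its relative Mdm4 hold p53 in check. The CIP/KIP proteins bind cyclin-CDK complexes, and their dose sets how readily blood stem and progenitor cells leave quiescence. YY1 itself is known to bind Mdm2 and p53 proteins in other cells, which is background and was not measured here.

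The deposited lists give the position of each peak, the stretch of genome where tags (aligned reads) were dense enough to be called. The measures used were whether a library had a peak and how wide it was in bp, since the lists hold no height. Below, 4 values in a row stand for WT replicate 1, WT replicate 2, XistΔ/Δ replicate 1 and XistΔ/Δ replicate 2. In that order there were 9553, 15933, 10075 and 18113 peaks from 24.9, 50.0, 23.1 and 59.5 M tags. Replicate 2 was thus the deeper library in both genotypes. The approximate share of tags in peaks was also higher in replicate 2 (3.58, 4.87, 3.59 and 4.88%). As a check of the labels, a peak lay at the Xist transcription start site (TSS) in both WT libraries (3083 and 3222 bp wide) and in neither XistΔ/Δ library.

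A peak within 3 kb of any annotated TSS of a gene was its promoter peak, and a peak in the gene body or within 10 kb of it that lay over 3 kb from the TSSs of all genes was distal. All but 1 of the 10 genes carried a promoter peak. In all, 9 of 10 had a promoter peak in at least 1 library, against 50.7% of all protein-coding genes, and 8 of 10 had it in all 4 libraries, against 36.0%. Cdkn1c had none, and Ccnd1 lacked it in XistΔ/Δ replicate 1, a pattern of 3.22% of all genes. The number of the 10 genes with a promoter peak was 9, 9, 8 and 9 in the 4 libraries, a mean of 9.0 ± 0.0 (SD, n = 2) in WT and 8.5 ± 0.707 (n = 2) in XistΔ/Δ. No gene of the 10 had a promoter peak in both libraries of only 1 genotype, a pattern rare in all genes too (0.0689% for WT and 0.202% for XistΔ/Δ), and none had it in the replicate 2 libraries alone (4.37%). The count in all 4 libraries fell to 7 with a promoter window of 1 kb and to 7 when peaks nearer to another gene's TSS were left out, in each case through Cdkn1a, which in the latter had a promoter peak in the replicate 2 libraries only. The 10 genes have from 2 (Cdkn1b) to 19 (Ccnd3) annotated TSSs. They were not matched to all genes in expression or number of TSSs, so these shares and the width percentiles below are descriptions. The Lin− population is bulk material, so more cells with a bound site and more binding per cell cannot be told apart.

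The widths of the widest promoter peak separated the 10 genes more than they separated the genotypes. The plot of widths by gene shows Trp53 and Cdkn1b among the 3 widest in every library, Ccnd1 the lowest of the genes with a peak, and a gap between the replicate numbers inside most genes. As a percentile among all protein-coding genes of the same library, where genes without a peak share the lowest place (25.4 to 30.2), the median over the 4 libraries ran from 28.1 for Cdkn1c to 98.9, with a median over the 10 genes of 80.8 against 30.2 for all genes. Ccnd2 alone was wider in both XistΔ/Δ libraries than in both WT libraries (1 of 10, against 0.887% of all genes), and Mdm2 alone was narrower (1 of 10, against 2.62%). Within both replicate numbers Ccnd2 was wider (1 of 10, against 7.62%) and Trp53 and Mdm2 were narrower (2 of 10, against 14.1%). These shares are over all genes, and the 10733 without a promoter peak in any library could be neither wider nor narrower. All called genes came from the 11022 with a promoter peak in at least 1 library. They were 193 wider and 571 narrower in both XistΔ/Δ libraries, and 1658 wider and 3074 narrower within both replicate numbers. Among genes with a peak the shares are thus higher. With 2 against 2 libraries an exact permutation test cannot give a two-sided p below 0.333, so no width could pass a threshold.

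**Figure D1:**
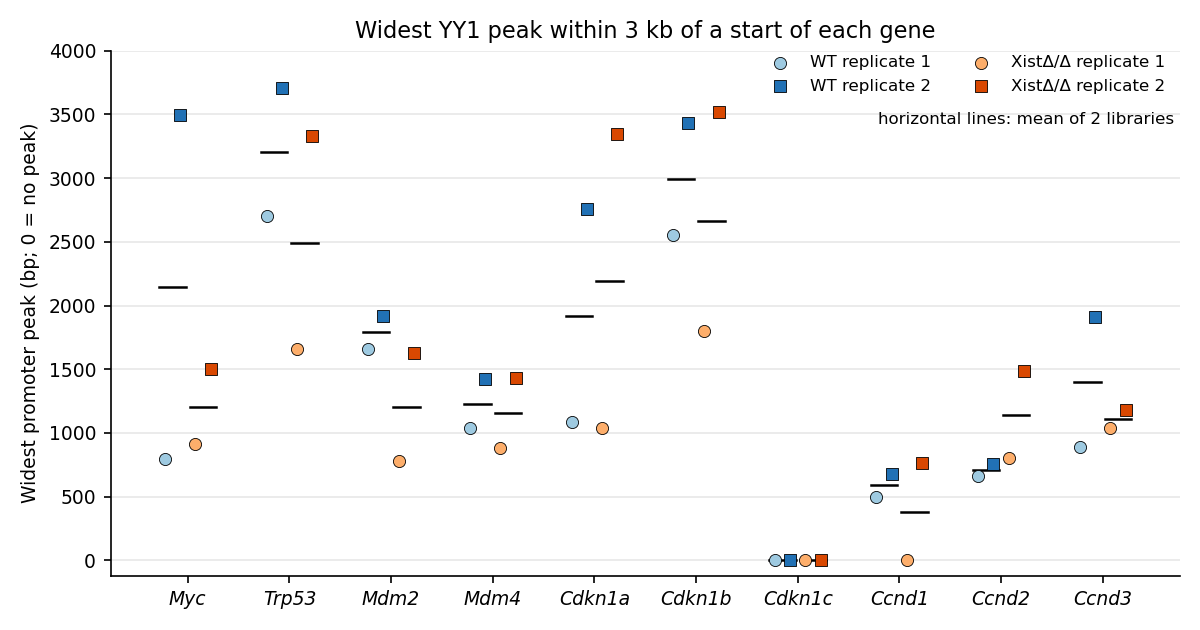
Width in bp of the widest YY1 peak within 3 kb of a TSS of each gene (0 where no peak was called), 1 point per library, with horizontal lines for the mean of the 2 libraries of a genotype. Trp53 and Cdkn1b reach 3706 and 3519 bp, all 4 libraries are at 0 for Cdkn1c, and the squares (replicate 2) stand above the circles (replicate 1) of the same genotype in the other 9 genes.

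Myc (ENSMUSG00000022346.15, chr15:61985391-61990374, plus strand), the bHLH transcription factor that pairs with Max, was covered at its promoters in all 4 libraries. Its peaks merged to a stretch at chr15:61983188-61987829 that runs from upstream of the gene over the first exon into coding sequence and also lies near the start of the unclassified transcript Gm37947. The widest peak measured 799, 3495, 911 and 1501 bp. WT replicate 2 stood far above the other 3, with a peak of 3495 bp over a stretch that WT replicate 1 and XistΔ/Δ replicate 2 had as separate peaks, and the genotypes overlapped. The difference of the means was -941 bp (2147 ± 1910 in WT and 1206 ± 417 in XistΔ/Δ, SD, n = 2 each, exact permutation p = 1.0), and it was 112 bp in replicate 1 and -1994 bp in replicate 2. Summed over the stretch, the peaks covered 2202, 4453, 911 and 3640 bp.

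The position of the Myc peaks was steadier than their width. The outermost TSS lay inside a peak in every library, and 3, 6, 3 and 5 of the 6 annotated TSSs did. WT replicate 1 had 3 peaks and XistΔ/Δ replicate 1 had the peak at the outermost TSS alone. Neither the gene body nor the 10 kb around it held a distal peak in any library.

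Trp53 (ENSMUSG00000059552.13, chr11:69580359-69591873, plus strand) shares its promoter with Wrap53, which is transcribed the other way from a TSS at -104 bp (upstream of the outermost Trp53 TSS). The shared promoter held the widest peak of the 10 genes in 2 libraries. Its widest peak measured 2702, 3706, 1659 and 3327 bp, which placed Trp53 at percentiles 99.0, 99.2, 96.1 and 98.7 of all genes. XistΔ/Δ replicate 1 was the lowest, and there the stretch was called as more than 1 peak, with a summed width of 2995 bp. The mean was 3204 ± 710 bp in WT and 2493 ± 1180 bp in XistΔ/Δ (SD, n = 2 each, exact permutation p = 0.667), and the genotypes overlapped. The percentile was lower in both XistΔ/Δ libraries than in both WT libraries for Trp53 and Mdm2 (2 of 10, against 6.22% of all genes) and higher for Ccnd2 (1 of 10, against 8.38%). Genes without any promoter peak, which could show neither pattern, count in these shares too. The merged region, chr11:69578692-69582397, covers 3 of the 4 Trp53 TSSs in each library. An additional intronic peak of 501 bp at chr11:69585402-69585902 was called in WT replicate 2 only.

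Sequences of the shared Trp53 promoter are shown at their matches to motifs of YY1 and Myc, with the motif in capitals. The first holds ATGGC, the core of the YY1 motif, 56 bases before the RefSeq TSS (chr11:69580291-69580320, GRCm38.p6, plus strand). The second holds CACGTG, the E-box that Myc and Max bind, from base 11 after the TSS, in the untranslated part of the first exon (chr11:69580357-69580386, plus strand). The third holds the longer form ATGGCGG, at -1430 bp from the nearest Trp53 TSS, on the Wrap53 side (chr11:69578918-69578947, plus strand). The first pair lay inside a peak in all 4 libraries and the third inside a peak in the replicate 2 libraries only.
Trp53 core: cccttacttgttATGGCgactatccagctt
Trp53 E-box: actttcccctccCACGTGctcaccctggct
Trp53 long form: atcaccaccgcATGGCGGaggcaccggttc

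Mdm2 (ENSMUSG00000020184.15, chr10:117688875-117710758, minus strand), the ubiquitin ligase that p53 induces and that degrades p53, had a peak over 7 of its 8 TSSs in every library (chr10:117709576-117711497). The widest peak measured 1663, 1922, 780 and 1630 bp. Both XistΔ/Δ libraries lay below both WT libraries, with 1630 bp below 1663 bp as the closest pair. The mean was 1792.5 ± 183 bp in WT and 1205 ± 601 bp in XistΔ/Δ, a difference of -587.5 bp (SD, n = 2 each), with the smallest exact permutation p this design allows, 0.333. The difference was -883 bp in replicate 1 and -292 bp in replicate 2. The low value of XistΔ/Δ replicate 1 came from a stretch that was called as separate peaks of 501 and 780 bp. Summed, the widths were 1663, 1922, 1281 and 1630 bp, and the order of the genotypes stayed. It did not stay by place in the peak list, a measure chosen after seeing the data. As percentiles, higher being nearer the top of the list, the places were 74.1, 77.3, 43.2 and 80.5, with XistΔ/Δ replicate 2 the highest. Over all genes with a promoter peak the median width was 1022.5, 1308, 901 and 1292 bp, so XistΔ/Δ replicate 1 had narrower peaks in general, and its part in the Mdm2 difference was not tested.

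The Mdm2 promoter is shown at its match to the YY1 core, 19 bases before the RefSeq TSS (chr10:117710760-117710789, minus strand, motif in capitals). The match lay inside a peak in all 4 libraries.
Mdm2 core: cccgatgcccggATGGCccgtggcttccgg

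Mdm4 (ENSMUSG00000054387.13, chr1:132959484-133030561, minus strand), the relative of Mdm2 that blocks p53 without ligase activity of its own, had its peak at inner TSSs. The widest peak measured 1040, 1421, 879 and 1432 bp, with no separation of the genotypes (1230.5 ± 269 against 1155.5 ± 391 bp, SD, n = 2 each, exact permutation p = 1.0). It lay at chr1:133024556-133026019, 5.27 kb inside the gene, over 7 of 13 TSSs in every library. The start of the processed pseudogene Gm29257 lies in the same region, and only the peaks of the replicate 2 libraries reached it. The outermost Mdm4 TSS was not in a peak and lay between 3387 and 4842 bp from the nearest one. The RefSeq promoter at the inner TSS has 9 CpG dinucleotides in 300 bases and a peak in all 4 libraries, while the one at the outer TSS has 4 and no peak. A distal peak of 501 bp stood upstream at chr1:133033948-133034448 in WT replicate 2 only.

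Cdkn1a (ENSMUSG00000023067.14, chr17:29090976-29100727, plus strand) encodes p21, the CDK inhibitor through which p53 halts the cycle. YY1 peaks lay inside the gene in all 4 libraries and never at the outermost TSS, which was 2918, 2623, 4083 and 2412 bp from the nearest peak. The region, chr17:29093388-29096731, holds an untranslated exon and the start of the unclassified transcript AC167363.2. The widest peak measured 1083, 2755, 1036 and 3344 bp. The replicate 2 libraries were alike in standing far above the replicate 1 libraries, whatever the genotype, and their peaks alone reached the TSSs at 2793 and 2805 bp inside the gene. The mean was 1919 ± 1180 bp in WT and 2190 ± 1630 bp in XistΔ/Δ (SD, n = 2 each, exact permutation p = 1.0), with differences of -47 bp in replicate 1 and 589 bp in replicate 2.

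The 2 RefSeq promoters of Cdkn1a are shown because YY1 peaks were called over the inner one alone, with each CpG in capitals. Each sequence is the 250 bases before a RefSeq TSS on the plus strand of GRCm38.p6. The outer one (chr17:29090729-29090978) has 2 CpG dinucleotides and 54.0% GC and had no peak in any library. The inner one (chr17:29093519-29093768) has 19 CpG dinucleotides and 64.8% GC and overlapped a peak in WT replicate 2 and XistΔ/Δ replicate 2.
Cdkn1a outer promoter: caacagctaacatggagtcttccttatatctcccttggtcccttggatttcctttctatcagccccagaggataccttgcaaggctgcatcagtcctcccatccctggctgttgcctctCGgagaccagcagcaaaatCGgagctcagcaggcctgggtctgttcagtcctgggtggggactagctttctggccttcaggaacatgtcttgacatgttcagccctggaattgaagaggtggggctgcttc
Cdkn1a inner promoter: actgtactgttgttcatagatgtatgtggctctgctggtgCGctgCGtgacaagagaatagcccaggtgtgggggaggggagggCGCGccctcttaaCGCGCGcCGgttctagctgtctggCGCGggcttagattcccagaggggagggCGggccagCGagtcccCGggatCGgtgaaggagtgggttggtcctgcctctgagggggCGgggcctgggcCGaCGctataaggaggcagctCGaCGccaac
Of the 32851 RefSeq promoters of the mouse genome, 22.4% overlapped a peak in all 4 libraries and had a median of 25 CpG dinucleotides in 300 bases, while 66.8% overlapped none and had a median of 4. On the same 300 bases the outer Cdkn1a promoter has 2 and the inner one 23.

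Cdkn1b (ENSMUSG00000003031.14, chr6:134920401-134925513, plus strand) encodes p27, which binds and restrains cyclin E-CDK2. It was the most fully covered of the inhibitors, with peaks over the promoter, upstream and past the end of the gene in every library. The widest promoter peak measured 2554, 3431, 1801 and 3519 bp, at percentiles 98.7, 98.7, 97.1 and 99.1 of all genes. XistΔ/Δ replicate 1 was the lowest, where the stretch was called as peaks of 1801 and 627 bp, and XistΔ/Δ replicate 2 the highest, so the genotypes overlapped (2992.5 ± 620 against 2660 ± 1210 bp, SD, n = 2 each, exact permutation p = 1.0). The peaks merged to chr6:134919572-134923090 and contained both annotated TSSs in all 4 libraries.

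A separate region upstream of Cdkn1b, centred at -3.26 kb from its TSS (chr6:134916379-134917911), had peaks of 1056, 1205, 772 and 1432 bp. Past the 3′ end, a region at chr6:134925701-134930235, reaching the starts of the noncoding genes Lockd and Gm44238, had peaks of 2535, 4521, 2303 and 3939 bp. Lockd is a noncoding RNA gene known from erythroid cells as a neighbour of Cdkn1b. This was the only region of the 10 loci at the start of another gene alone, and it was called in all 4 libraries.

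The Cdkn1b promoter holds the longer YY1 motif ATGGCGG (in capitals), from base 39 after the RefSeq TSS on the minus strand, in the untranslated part of the first exon (chr6:134920421-134920450, printed on the minus strand). The match lay inside a peak in all 4 libraries.
Cdkn1b long form: ccaatATGGCGGtggaagggaggctgacga

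Cdkn1c (ENSMUSG00000037664.13, chr7:143458339-143461050, minus strand) encodes p57, an imprinted inhibitor tied to the quiescence of blood stem cells. No library had a peak in the gene or within 10 kb. The nearest peak to its outermost TSS was 87312, 87136, 87553 and 87079 bp away. The lists give no tag counts under the calling threshold, so a weak site at Cdkn1c could not be seen.

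The maps of Myc, Cdkn1a, Cdkn1b and Ccnd2 set the peaks of each library over the annotated TSSs. At Cdkn1a and Cdkn1b, bars of the replicate 1 libraries are shorter or broken where those of replicate 2 run through. At Myc the bars of XistΔ/Δ replicate 2 are broken too, into peaks of 766, 1501 and 1373 bp. Around the outermost Ccnd2 TSS the bars are broken in every library. The peak nearest that TSS is wider in XistΔ/Δ replicate 1 (802 bp) than in XistΔ/Δ replicate 2 (633 bp). At Cdkn1a the bars begin well inside the gene.

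**Figure D2:**
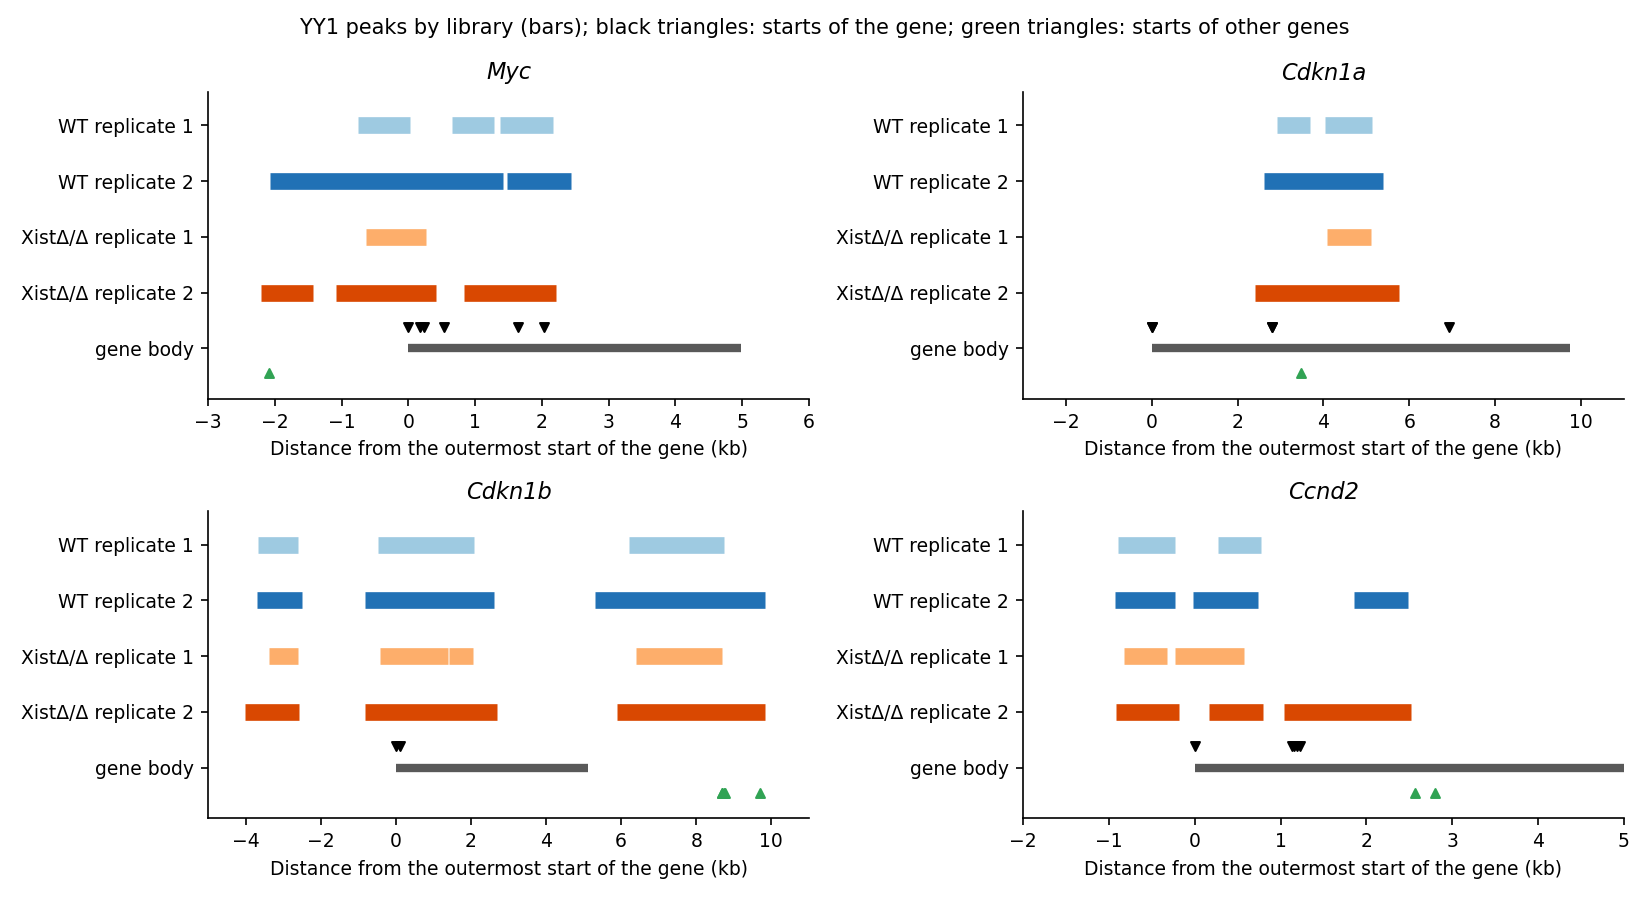
YY1 peaks of the 4 libraries (bars, 1 row per library) at Myc, Cdkn1a, Cdkn1b and Ccnd2, by distance in kb from the outermost TSS in the direction of transcription, with black triangles for TSSs of the gene and green triangles for those of other genes. Cdkn1b has 3 separate regions in every library, the Cdkn1a bars start 2412 bp or more inside the gene, and at Ccnd2 the bar of 1487 bp is found in XistΔ/Δ replicate 2 alone.

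Ccnd1 (ENSMUSG00000070348.5, chr7:144929931-144939925, minus strand), cyclin D1, had the narrowest promoter peaks of the genes that had any. They measured 501 and 679 bp in WT, none was called in XistΔ/Δ replicate 1, and the peak of XistΔ/Δ replicate 2 measured 766 bp. With the missing peak counted as 0 bp the mean was 590 ± 126 bp in WT and 383 ± 542 bp in XistΔ/Δ (SD, n = 2 each, exact permutation p = 1.0). A width of 501 bp was the commonest in every library, and the WT replicate 1 peak had it. The region, chr7:144937384-144938170, is a coding exon near an inner TSS, and none of the 3 annotated TSSs lay inside a peak. The outermost TSS was 1755, 1799 and 1776 bp from the nearest peak in the 3 libraries that had 1 in the gene.

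Ccnd2 (ENSMUSG00000000184.12, chr6:127125162-127152193, minus strand), cyclin D2, was the gene with wider values in both XistΔ/Δ libraries. The widest promoter peak measured 661, 760, 802 and 1487 bp. Both XistΔ/Δ libraries lay above both WT libraries, with 802 bp above 760 bp as the closest pair. The mean was 710.5 ± 70 bp in WT and 1144.5 ± 484 bp in XistΔ/Δ, a difference of 434 bp (SD, n = 2 each), again at the smallest exact permutation p, 0.333. It was 141 bp in replicate 1 and 727 bp in replicate 2.

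The widths compared at Ccnd2 did not come from the same site. The peak of 1487 bp in XistΔ/Δ replicate 2 lay inside the gene at chr6:127149672-127151158, near the antisense gene 9330179D12Rik, where WT replicate 2 had a peak of 627 bp and the replicate 1 libraries had none. At the outermost TSS (chr6:127151396-127153124) every library had 2 peaks, and their summed widths of 1162, 1462, 1303 and 1367 bp overlapped between the genotypes. Of the 7 Ccnd2 TSSs, 0, 1, 1 and 4 lay in peaks, and the 4 in XistΔ/Δ replicate 2 lay in its inner peak.

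Ccnd3 (ENSMUSG00000034165.16, chr17:47505051-47599691, plus strand), cyclin D3, needed for the growth of early T cells and for red cell progenitors, is the longest of the 10 genes and had the most peaks. Its widest promoter peak measured 890, 1908, 1040 and 1182 bp (1399 ± 720 against 1111 ± 100 bp, SD, n = 2 each, exact permutation p = 1.0). In WT replicate 1 and both XistΔ/Δ libraries that peak lay at the start of Taf8, and in WT replicate 2 at a downstream group of Ccnd3 TSSs. Without peaks nearer to Taf8 the widths were 501, 1908, 643 and 1023 bp. The region at the start of Taf8 (chr17:47501499-47502714), a TFIID subunit gene transcribed the other way, had peaks of 890, 1045, 1040 and 1182 bp. At the first Ccnd3 TSS (chr17:47504684-47505336) peaks measured 501 and 631 bp in WT, none was called in XistΔ/Δ replicate 1, and 501 bp was measured in XistΔ/Δ replicate 2. A region centred 3.12 kb inside the gene (chr17:47507606-47508727) had peaks of 501, 1122, 501 and 1023 bp.

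The downstream group of Ccnd3 TSSs, centred 88.9 kb and more into the gene, was covered mostly in the replicate 2 libraries. Peaks at chr17:47592918-47594967 measured 501, 1908, 0 and 1689 bp in sum, and those at chr17:47595199-47596226 measured 0, 904, 643 and 882 bp. Of all 19 annotated TSSs, those at the first TSS included, 13, 17, 0 and 16 lay in peaks. XistΔ/Δ replicate 1 (23.1 M tags) thus had no Ccnd3 TSS in a peak, although it had peaks within 3 kb of several. WT replicate 1, with 24.9 M tags, had 13, and the part of depth was not tested.

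Distal peaks were found at Mdm4 and Ccnd3 only (2 of 10, against 14.3% of all genes with a distal peak in any library), and all of them in replicate 2 libraries at the settings used. The number over the 10 genes was 0, 5, 0 and 6, a mean of 2.5 ± 3.54 in WT and 3.0 ± 4.24 in XistΔ/Δ (SD, n = 2 each). The replicate numbers did not overlap, and the genotypes differed by less than the replicate numbers did. Depth, the share of tags in peaks and replicate number cannot be told apart here. The replicate 1 libraries did have distal peaks under other settings, with counts of 2, 9, 3 and 9 for a promoter window of 1 kb, 1, 8, 1 and 7 when the middle of the peak decided, and 0, 6, 1 and 6 within 25 kb of the gene, and replicate 2 stayed above replicate 1 in each. Ccnd3 had distal peaks in both replicate 2 libraries and neither replicate 1 library (1 of 10, against 4.37% of all genes), and no gene of the 10 had them in all 4 libraries (1.92%).

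Ccnd3 carried 4 distal peaks in WT replicate 2 and 6 in XistΔ/Δ replicate 2, all in introns. Among the 4178 genes of 0.5 to 2 times its length, 0.957% had 4 or more in WT replicate 2 and 0.359% had 6 or more in XistΔ/Δ replicate 2, with a median of 0. They merged to 7 regions between 4.14 and 40.3 kb from the outermost TSS. The libraries shared 3 of them, at chr17:47511060-47511814 (501 and 755 bp in WT and XistΔ/Δ replicate 2), chr17:47523135-47523908 (761 and 760 bp) and chr17:47531070-47532128 (998 and 1059 bp). The widths in the replicate 2 libraries of the genotypes were close at the latter 2 places and not at the first. The other 4 regions were in 1 library each, 1 in WT replicate 2 and 3 in XistΔ/Δ replicate 2.

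**Figure D3:**
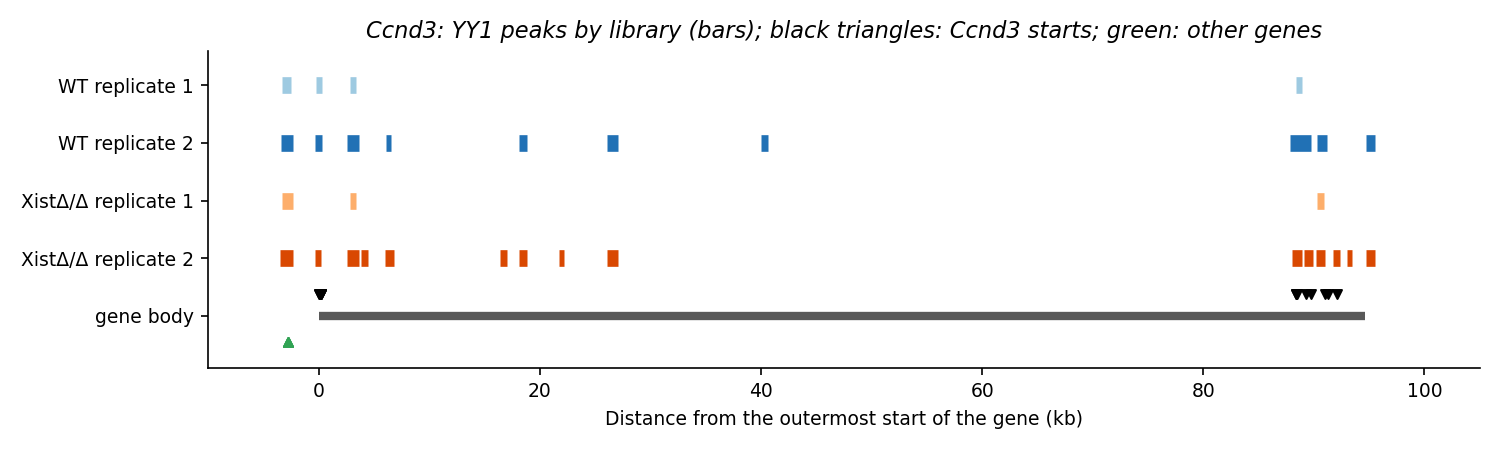
YY1 peaks of the 4 libraries (bars) along Ccnd3, by distance in kb from the outermost TSS, with black triangles for Ccnd3 TSSs and a green triangle for the start of Taf8. Bars between 4.14 and 40.3 kb occur in the rows of the replicate 2 libraries only, while the bar at Taf8 is present in all 4 rows.

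Merged over the libraries, the 10 loci held 19 promoter regions, of which 10 had a peak in all 4 libraries, 2 in both replicate 2 libraries only and 3 in 1 library. Of all 13319 start-proximal regions of the genome 53.4% had a peak in all 4, 13.8% in the replicate 2 libraries only and 18.2% in 1 library. None of the 8 distal regions had a peak in all 4 libraries, 3 had it in both replicate 2 libraries only and 5 in 1 library, against 9.89%, 26.7% and 49.2% of all 6449 distal regions. No region of the 10 loci had peaks in both libraries of 1 genotype and none of the other. In the genome that held for 0.683% (XistΔ/Δ) and 0.24% (WT) of start-proximal regions and for 1.3% and 0.496% of distal ones.

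The motifs were searched on both strands, with every ATGGCGG also counted as ATGGC. RefSeq promoters (250 bases before and 50 after a TSS, GRCm38.p6) were matched for 6 of the 10 genes, as 9 promoters. ATGGC stood in 3 of the 9, those of Cdkn1b, Mdm2 and Trp53, against 40.5% of all 32851 RefSeq promoters. ATGGCGG stood in 1, that of Cdkn1b, against 4.05%, and CACGTG in 1, that of Trp53, against 7.15%. Myc, Cdkn1c, Ccnd1 and Ccnd2 had no entry. The count for ATGGC was thus no higher than the background share, and the matches of Trp53, Mdm2 and Cdkn1b lay within the peaks of all 4 libraries.

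A window of 500 bases was set on the middle of the narrowest peak of each merged region, which need not be the middle of the region. In these windows the long form ATGGCGG was found in 0 of the 20 start-proximal regions of the 10 loci, against 14.4% of all such regions, and in 0 of the 8 distal ones, against 4.03%. The matches of Trp53, Mdm2 and Cdkn1b printed above, the Trp53 E-box included, lie outside those windows, as does a further ATGGCGG in the coding exon of Ccnd1, which lay in a peak in XistΔ/Δ replicate 2 only. The core ATGGC was in 11 of the 20 (65.0% of all) and 4 of the 8 (70.5% of all). CACGTG was in 1 of the 20, the region of the outermost Ccnd2 TSS (12.2% of all), and in 2 of the 8, both inside Ccnd3 (8.73% of all). A match of letters describes the sequence and does not show that a factor bound there.

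The genes around the 10 in the same pathways were taken in 5 lists. Promoter peaks in all 4 libraries were found for 72.7% of the Myc network (8 of 11), 85.7% of p53 regulators (12 of 14), 65.0% of p53 targets (13 of 20), 71.4% of INK4 inhibitors and pocket proteins (5 of 7) and 100.0% of the G1 and S phase engines (15 of 15), beside 36.0% of all genes. The names of the lists are labels, and the list of engines also holds regulators such as E2f4 and Fbxw7. The lists were not matched to all genes in expression or number of TSSs, so the shares are descriptions. The bar plot of the lists shows the same levels in both genotypes at a given replicate number to within 2 genes.

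**Figure D4:**
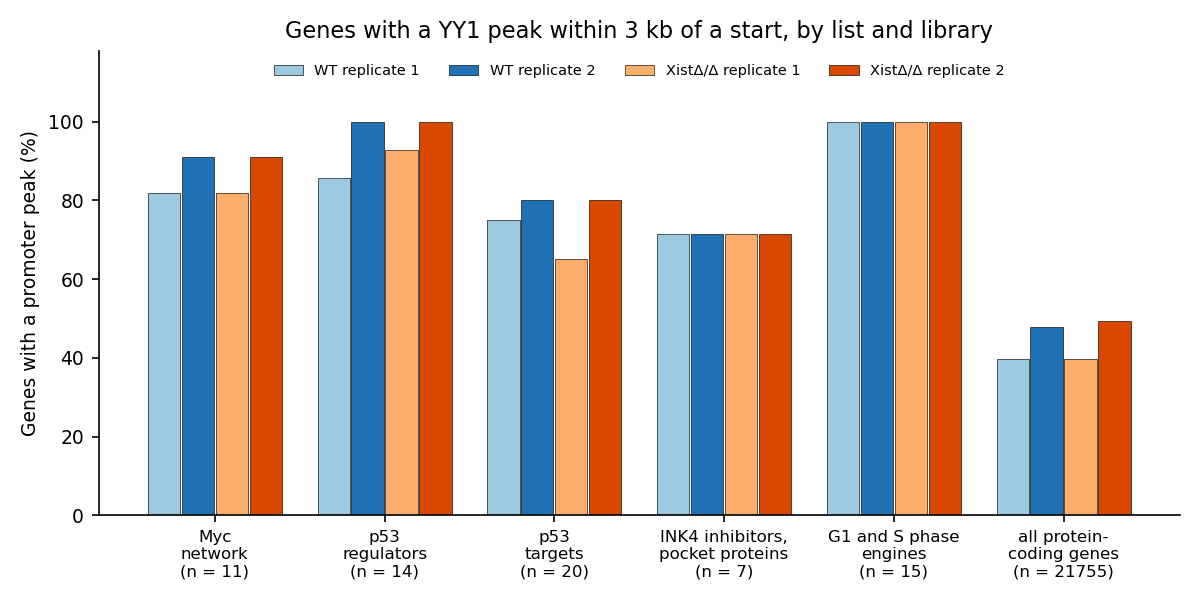
Percent of genes with a YY1 peak within 3 kb of a TSS, by pathway list and for all 21755 protein-coding genes, with 1 bar per library. The G1 and S phase engines are at 100.0% in every library, and all genes stand at 39.7%, 48.0%, 39.7% and 49.3%.

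In the Myc network, the widest promoter peaks by median percentile were at Mnt, a repressor that competes with Myc for Max (3025, 3817, 3039 and 3707 bp, median percentile 99.4), Zbtb17, the factor Miz1 through which Myc represses genes (97.2), and Mxi1, another Max partner (97.0). Mycl had no promoter peak in any library. Among p53 regulators the leaders were Ep300, the acetyltransferase p300 (3030, 3709, 2396 and 3729 bp, 99.3), Daxx (97.3) and Usp7, the deubiquitinase of Mdm2 and p53 (96.7). All 6 of these genes had a promoter peak in all 4 libraries. Chek1, the checkpoint kinase, was the gene of that list with peaks in the replicate 2 libraries only.

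Among p53 targets the leaders were Polk, a DNA polymerase of lesion bypass (2152, 2074, 1402 and 2252 bp, 93.5), Sesn1 (90.3) and Btg2, an antiproliferative gene (89.2), while Fas and Zmat3 had no promoter peak in any library. Of the INK4 inhibitors, which block CDK4 and CDK6, Cdkn2c led (3173, 3228, 1418 and 2911 bp, 97.9), followed by the pocket protein gene Rb1 (97.0) and Cdkn2d (90.9). Cdkn2a and Cdkn2b, the neighbouring genes of p16, p19Arf and p15, had none in any library. Peaks were thus at 2 of the 4 INK4 genes, near the share of all genes with a promoter peak in at least 1 library (50.7%). Among the G1 and S phase engines E2f3 led (2415, 3125, 1735 and 2618 bp, 97.3), followed by Cdc25a (90.7) and Cdk6 (88.8).

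No gene of the 5 lists had a promoter peak in both libraries of only 1 genotype, and none was wider in both XistΔ/Δ libraries than in both WT libraries. Narrower in both XistΔ/Δ libraries were Mga of the Myc network (1 of 11), Atm of the p53 regulators (1 of 14), Cdkn2c (1 of 7) and Ccne2 and Cdc25a of the engines (2 of 15), while no p53 target was. These 5 were named after their values were seen. In all genes the narrower pattern was the commoner too (2.62% against 0.887%), beside the narrower peaks of XistΔ/Δ replicate 1, and that library's part in the counts was not tested.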

How the data were processed

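YY1 ChIP-seq was done by the authors on MNase-digested chromatin of Lin− cells. Per the methods and the submitters' processing notes, reads were trimmed with Trim Galore, aligned to mm10 with Bowtie2 2.3.5.1, filtered at mapping quality 30 with SAMtools 1.10 and freed of duplicates. HOMER 4.9.1 findPeaks (size 500 bp, minimum distance 500 bp, 4 fold over the local region, false discovery rate 0.001) was run on single libraries per the file headers, with no input library named, so peaks can also follow open chromatin. The paper's methods name a later HOMER version and also the region setting of findPeaks. The deposited peak positions are the values used here, and the deposited score is 1 for every peak and was not used. A peak needed 22, 33, 22 and 37 tags in WT replicates 1 and 2 and XistΔ/Δ replicates 1 and 2. Depth, the share of tags in peaks, replicate number and the number that headers give per replicate cannot be told apart. No counting interval can be given for a width.

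TSSs were those of all GENCODE M21 transcripts. An overlap of 1 bp counted, and peaks of the 4 libraries sharing 1 bp were merged into regions. Positions are 1-based. Widths were compared one gene at a time with a two-sided exact permutation test over libraries, with a gene without a peak at 0 bp, and counts were only described. The methods speak of biological replicates without saying whether each library came from separate mice. The p-values thus refer to splits of these 4 libraries and may not speak for separate mice. The 10 genes and the pathway lists were chosen with earlier results of these data known. All 10 genes are named, as are neighbours with a TSS within 3 kb of a counted peak and, of each list, at most 3 genes with the highest median percentile and at most 3 without any promoter peak. Further list genes are named for a pattern or for their membership. Alternatives were windows of 1 and 5 kb, 5 and 25 kb around the gene, lists cut to equal length, peak centres, other measures of width, a replicate block and leaving out each library. The headers number replicates otherwise than the labels, which were followed. Scripts used Python 3.11.15, NumPy 2.4.6, pandas 2.3.3, SciPy 1.17.1 and Matplotlib 3.10.9 and were tested on simulated data.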

Additional observations from a re-analysis of the deposited data

How the results depend on the processing

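Differences are XistΔ/Δ minus WT means. Of 95 values under alternatives other than leaving out a library, 86 kept their direction, 8 reversed and 1 (distal peaks in lists of equal length) was 0.0, and the cause was not tested. The 86 include the values of the replicate block, which equal the main differences by design and could not reverse. By place in the list, an alternative chosen after seeing the data, as was the one of peaks nearest to the gene's own TSS, Myc differed by 0.228, Trp53 by 0.607, Mdm4 by 1.58 and Ccnd3 by 0.5 percentile points. Cdkn1a differed by -95.0 bp within 1 kb and by -118.0 bp in summed width, Ccnd3 by 280.0 bp in summed width, and distal peaks by -0.5 with peak centres. Leaving out 1 library moved the differences between -2290 and 407 bp for Myc, -1540 and 123 for Trp53, -1010 and -162 for Mdm2, -352 and 202 for Mdm4, -883 and 1420 for Cdkn1a, -1190 and 526 for Cdkn1b, -590 and 176 for Ccnd1, 91.5 and 776 for Ccnd2 and -797 and 221 for Ccnd3, between -1.0 and 0.0 for genes with a promoter peak and -2.5 and 3.5 for distal peaks. The sign turned without WT replicate 2 for Myc, Mdm4, Cdkn1b and Ccnd3, and without XistΔ/Δ replicate 1 for Trp53, Mdm4, Cdkn1b and Ccnd1. It turned without WT replicate 1 or XistΔ/Δ replicate 2 for Cdkn1a and distal peaks. Of the widths Mdm2 and Ccnd2 alone kept it. Their genotypes did not overlap, so leaving out 1 library could not turn the sign, and its staying adds nothing to that separation. Lists cut to 9553 peaks left 9, 8, 8 and 8 genes with a promoter peak and 0, 1, 0 and 1 distal peaks. With a replicate block, in which the smallest exact p is 0.5, the balanced design gave the same differences, such as -588 bp for Mdm2 and 434 bp for Ccnd2, and changed no call. Directory names in the headers share a number per replicate, whose meaning is not stated.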

Other observations

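Regions farther than 10 kb but within 25 kb of the 10 genes lay mostly at starts of other genes, chosen here after their values were seen. Upstream of Cdkn1a, the p53-induced noncoding gene Trp53cor1 had peaks at chr17:29077887-29079408 of 1213 bp in WT replicate 2 and 501 and 633 bp in XistΔ/Δ replicates 1 and 2, with none in WT replicate 1. Downstream of Cdkn1a, the start of Rab44 had peaks in the replicate 2 libraries only (630 and 627 bp). Next to Cdkn1b, the start shared by Gpr19 and the antisense gene 2810454H06Rik had peaks of 1823, 2143, 1813 and 1954 bp in WT replicates 1 and 2 and XistΔ/Δ replicates 1 and 2. In the same order, peaks measured 981, 918, 885 and 1162 bp at LTO1 and Bc1 beside Ccnd1, and 763, 1124, 846 and 1230 bp at Bysl and Med20 beside Ccnd3. Pik3c2b, upstream of Mdm4, had peaks of 734 and 789 bp in WT and of 627 bp in XistΔ/Δ replicate 2, with none in XistΔ/Δ replicate 1. The start of Tigar, itself a p53 target and the neighbour of Ccnd2, had a peak of 632 bp in XistΔ/Δ replicate 2 alone.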
